A study of Sus scrofa with 12 samples.

Results

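In back muscle (longissimus dorsi) of Meishan pigs, a Chinese breed, 41 of 23999 probe sets had their highest values at 3 days after birth and lower values both before birth and later. The probe sets were chosen by their measured values. On log2(intensity + 21), the mean of the 3-day arrays had to lie at least 1 above the mean of each other stage, and the lowest 3-day array had to lie above the highest of the 9 other arrays. These criteria were met by 47 probe sets, of which 6 belonged to 6 gene symbols that the choice leaves out. The 41 that remain comprise 14 with 1 gene symbol, 1 with several and 26 that the platform annotation used here does not name. The peak size is the 3-day mean minus the highest of the 3 other stage means on this log2 scale.

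Affymetrix porcine arrays were hybridised with RNA of 3 Meishan samples, described as biological replicates, at each of 4 stages: fetuses at 65 days post coitus (dpc), and pigs of 3, 60 and 120 days after birth. No group carried a genetic change or a drug, feeding followed commercial practice in all, and the fetuses of one sow counted as 1 individual. Array medians lay between 49.1 and 52.6 intensity units. Mature muscle markers identified the tissue: all 19 of those on the array passed the filter on low values, and their summed intensity lay at 56503 to 76307 at 65 dpc, 105061 to 114046 at 3 days, 102174 to 115061 at 60 days and 118015 to 120488 at 120 days. The 3-prime actin control exceeded the 5-prime one by a ratio of 2.32 to 2.64 at 65 dpc, 2.58 to 4.69 at 3 days, 3.85 to 6.18 at 60 days and 4.17 to 5.96 at 120 days. In whole muscle, fewer cells of a type and less RNA per cell cannot be told apart.

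At birth the muscle leaves a supply of glucose through the placenta and meets milk, which is rich in fat, while the newborn pig, which has no working brown fat, warms itself largely by shivering. Muscle mitochondria oxidise fatty acids in their matrix and pass electrons along respiratory complexes. Most mitochondrial proteins are encoded in the nucleus and imported, whereas a few are made inside by a separate set of ribosomes and translation factors. Chaperones hold proteins in a foldable state, and small heat-shock proteins of muscle bind sarcomere and desmin filaments. The roles given for single genes below are known mainly from human and mouse.

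Most peaks were below 3-fold. Their median was 1.26 on the log2 scale (2.40-fold), 2 of 41 reached 2 or more, 11 reached 1.5 and 30 stayed below 1.5. The median of the stage means over the 41 probe sets was 108 intensity units at 65 dpc, 559 at 3 days, 185 at 60 days and 169 at 120 days. By probe set, the median distance of the 3-day mean was 1.76 from 65 dpc, 1.33 from 60 days and 1.37 from 120 days. The lowest stage was 65 dpc for 24 probe sets, 60 days for 5 and 120 days for 12. The stage next below 3 days was 65 dpc for 11, 60 days for 16 and 120 days for 14. These values fixed the choice, so they describe the probe sets and carry no test.

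**Figure D1:**
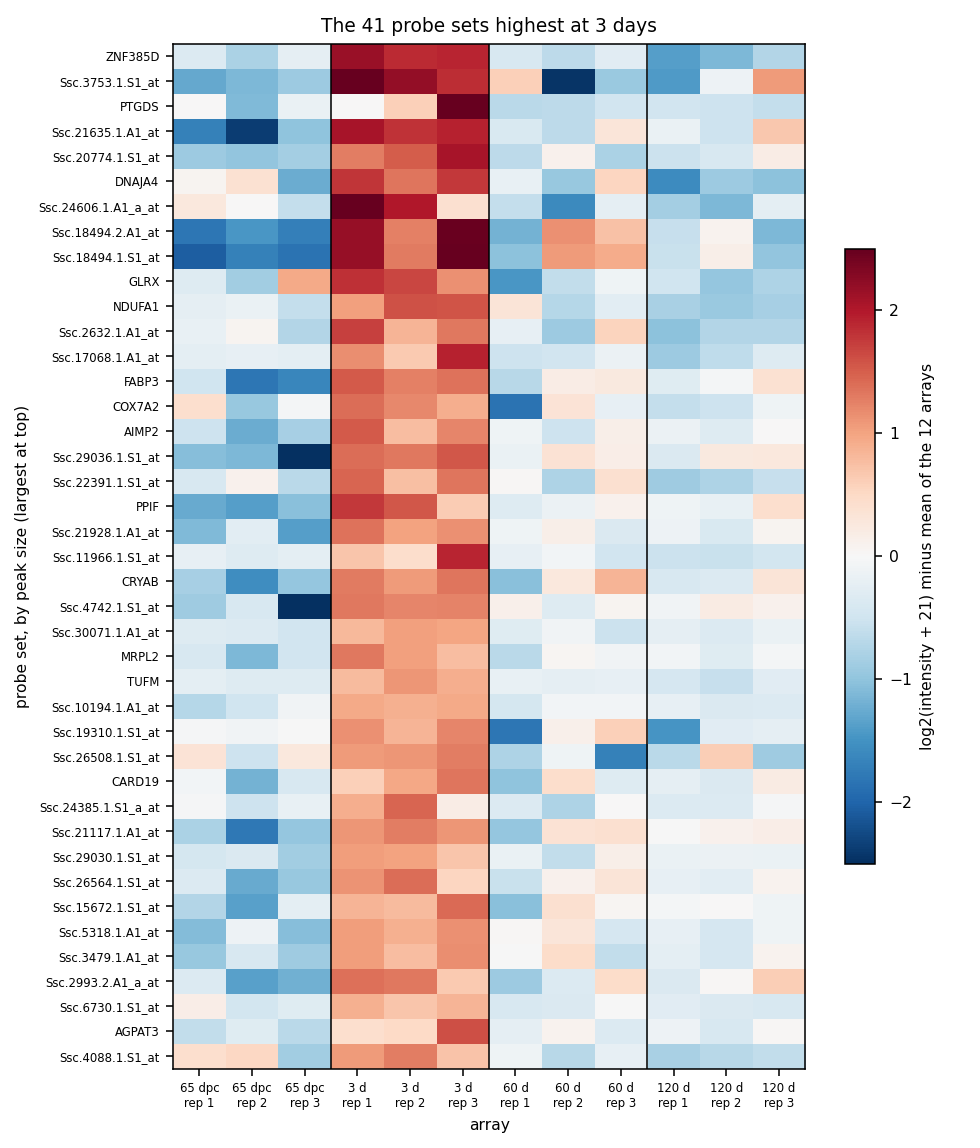
Heat map of the 41 probe sets (rows, largest peak at the top) on the 12 arrays (columns, in stage order); colour is log2(intensity + 21) minus the mean of the 12 arrays of that probe set, and the scale stops at 2.5 in either direction. The block of 3-day arrays is the warmest in each row by construction, and the fetal, 60-day and 120-day columns differ among rows in which is palest.

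The same criteria applied to the other stages gave 1165 probe sets highest at 65 dpc, 3 at 60 days and 14 at 120 days, with the same 6 symbols left out. A further 12 probe sets had 3-day means at least 1 above each other stage but overlapped another stage on single arrays. Just inside the limit of 1 lay an unnamed probe set at 1.0005, AGPAT3 at 1.01 and another unnamed one at 1.01. Just outside it lay a probe set of COQ3 at 0.999, an unnamed one at 0.989 and BCS1L at 0.985.

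Mitochondrial translation and protein handling were represented by MRPL2, TUFM and PPIF. MRPL2, a protein of the large subunit of the mitochondrial ribosome, measured 217, 124 and 204 at 65 dpc, 764, 622 and 512 at 3 days, 177, 303 and 274 at 60 days, and 277, 235 and 283 at 120 days. Its lowest 3-day array, 512, stood above all other arrays, of which the highest was 303 (peak 1.18). TUFM, the elongation factor that brings aminoacyl-tRNA to that ribosome, measured 379, 354 and 353 at 65 dpc, 794, 984 and 867 at 3 days, 394, 381 and 387 at 60 days, and 329, 293 and 368 at 120 days. On the log2 scale TUFM averaged 8.58 at 65 dpc, 8.67 at 60 days and 8.45 at 120 days, against 9.81 at 3 days (peak 1.14). It was therefore nearly level at the stages around the peak. The SD among the arrays was 0.055 at 65 dpc, 0.152 at 3 days, 0.024 at 60 days and 0.154 at 120 days (n = 3 each). PPIF, the peptidyl-prolyl isomerase cyclophilin D of the mitochondrial matrix, measured 62.0, 55.3 and 74.7 at 65 dpc, 655, 557 and 285 at 3 days, 137, 157 and 193 at 60 days, and 162, 153 and 243 at 120 days. The lowest 3-day array of PPIF was only a little above the highest 120-day array, and all 60-day and 120-day arrays lay above all fetal ones (peak 1.28).

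The respiratory chain contributed NDUFA1 and COX7A2. NDUFA1, an accessory subunit of complex I, measured 83.3, 87.7 and 59.0 at 65 dpc, 226, 347 and 341 at 3 days, 131, 53.3 and 79.9 at 60 days, and 48.2, 43.3 and 47.5 at 120 days. The 120-day arrays of this probe set were its lowest (peak 1.62). COX7A2, a subunit of cytochrome c oxidase, measured 1077, 406 and 769 at 65 dpc, 2150, 1867 and 1517 at 3 days, 206, 1024 and 688 at 60 days, and 521, 550 and 742 at 120 days. The COX7A2 arrays of the other stages overlapped one another, and 60 days replicate 1 was the lowest of all (peak 1.36).

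FABP3, the fatty acid-binding protein that carries fatty acids through the cytoplasm of heart and muscle cells, measured 904, 355 and 400 at 65 dpc, 3799, 3132 and 3323 at 3 days, 795, 1465 and 1533 at 60 days, and 1046.5, 1251 and 1689 at 120 days. The 3-day mean was 3418 ± 343 (SD, n = 3), and no array of another stage exceeded 1689 (peak 1.37). AGPAT3, an acyltransferase that makes phosphatidic acid, measured 60.2, 80.02 and 57.0 at 65 dpc, 146, 154 and 359 at 3 days, 85.2, 110 and 76.6 at 60 days, and 92.9, 73.2 and 105 at 120 days. The height of this peak (1.01) rests on 3 days replicate 3, and AGPAT3 no longer met the criteria without that array. The same held without 60 days replicate 1 or 3, without 120 days replicate 2, and with a pseudocount of 51.

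Among chaperones, DNAJA4, a co-chaperone of the Hsp70 family, measured 420, 524 and 156 at 65 dpc, 1418, 1043 and 1417 at 3 days, 345, 196 and 592 at 60 days, and 120, 204 and 184 at 120 days. Fetal and 60-day arrays were scattered over the same range, and the 120-day arrays lay in or below its lower part (peak 1.83). CRYAB, the small heat-shock protein alpha-B crystallin, measured 1351, 814 and 1219 at 65 dpc, 6004, 5060 and 6139 at 3 days, 1157, 2906 and 4383 at 60 days, and 1823, 1907 and 3033 at 120 days. The 60-day arrays of CRYAB spanned the range from the fetal level to near the 3-day level (peak 1.21).

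GLRX, the glutathione-dependent oxidoreductase glutaredoxin, measured 196, 126 and 503 at 65 dpc, 935, 840 and 578 at 3 days, 77.8, 155 and 230 at 60 days, and 171, 116 and 137 at 120 days. Fetal replicate 3 came close to the lowest 3-day array (peak 1.63). AIMP2, a scaffold of the cytoplasmic complex of tRNA synthetases, measured 135, 74.2 and 106 at 65 dpc, 629, 365 and 503 at 3 days, 189, 136 and 229 at 60 days, and 183, 158 and 205 at 120 days. Each later array of AIMP2 was above each fetal one and well below each 3-day one (peak 1.33). CARD19, a protein with a caspase recruitment domain, measured 132, 50.03 and 100.7 at 65 dpc, 221, 291 and 382 at 3 days, 59.1, 195 and 108 at 60 days, and 116, 104 and 164 at 120 days. For CARD19 the lowest 3-day array was 0.16 above 60 days replicate 2 on the log2 scale (peak 1.09).

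The largest peak belonged to ZNF385D, a zinc finger protein, with 78.5, 52.6 and 87.4 at 65 dpc, 543, 441 and 451 at 3 days, 74.3, 59.8 and 82.8 at 60 days, and 27.5, 37.2 and 55.6 at 120 days. The peak was 2.42, and the lowest 3-day array stood 2.09 above the highest array of any other stage. PTGDS, the lipocalin-type synthase of prostaglandin D2, had a large mean peak but the smallest distance between its lowest 3-day array and the highest other array. It measured 121, 44.6 and 104 at 65 dpc, 121, 189 and 2271 at 3 days, 67.0, 68.4 and 79.0 at 60 days, and 80.1, 76.4 and 71.3 at 120 days. The larger part of its mean peak of 1.96 came from 3 days replicate 3. Its lowest 3-day array equalled the highest fetal array to within 0.0024 on the log2 scale. Without 3 days replicate 3 the PTGDS peak was 0.72.

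Other genes were also high on 3 days replicate 3. Haptoglobin (HP), a plasma protein among the 12 probe sets that overlapped another stage, measured 66.7, 44.2 and 1755 on the 3-day arrays. Of the 14 immune markers that passed the filter, 7 had their highest 3-day value on replicate 3, and 2 were more than 2 times the next 3-day array there. These 2 were the macrophage marker CD163, with 155, 175 and 603, and S100A9, a protein of neutrophils and monocytes, with 23.3, 38.0 and 143. CD163 was higher still on fetal replicate 3, at 868. Among the immune markers that did not pass the filter, S100A8 and S100A12 also exceeded 2 times the next 3-day array there. They measured 15.5, 17.2 and 46.3 (S100A8) and 20.7, 29.2 and 89.5 (S100A12) on the 3-day arrays. The others below the filter, CD3E, CD3G, CD8A, CD79B and CCR7, did not. How often probe sets in general were highest on 3 days replicate 3 was not counted, so these counts show no excess among immune markers. Over the immune marker list, which has 21 genes on the array, the summed intensity ranged over 1011 to 3400 at 65 dpc, 1049 to 1723 at 3 days, 1026 to 1293 at 60 days and 1079 to 1758 at 120 days. The part of these genes and of this array in the PTGDS value was not tested.

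**Figure D2:**
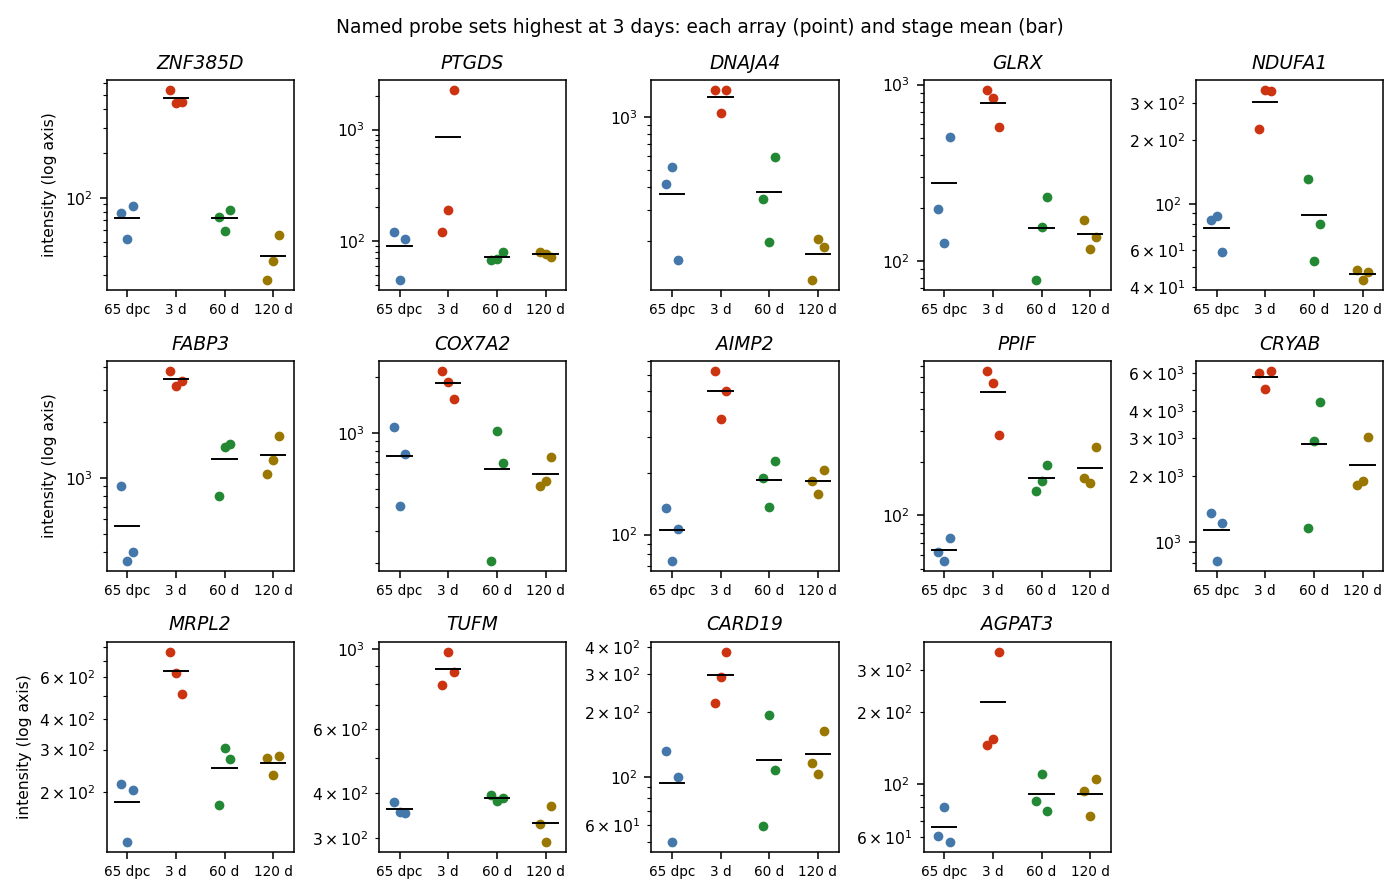
Intensity (log axis, range set per gene) of the 14 named genes at each stage, with points for the 3 arrays and a bar for their mean. ZNF385D and TUFM have tight points at 3 days well above the others, PTGDS has 1 array of 2271 with the others near 121 and 189, and the 60-day points of CRYAB and COX7A2 are spread widely.

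The 26 unnamed probe sets were like the named ones in size. Their peaks ran from 1.0005 to 2.36 and their 3-day means from 86.0 to 4328 intensity units. The stage next below was 65 dpc for 8 of them, 60 days for 10 and 120 days for 8. The largest of these peaks (2.36), the second row of the heat map, measured 177, 199.7 and 234 at 65 dpc, 2752, 2196 and 1718 at 3 days, 707, 67.1 and 232 at 60 days, and 159, 417 and 980 at 120 days. The next (1.93), the fourth row, measured 50.7, 23.3 and 93.6 at 65 dpc, 931, 781 and 856 at 3 days, 155, 125 and 261 at 60 days, and 184, 139.8 and 346 at 120 days. In the second of these all 120-day arrays lay above all fetal ones, while in the first they overlapped. One pair of the 41 shares an identifier stem, so the probe sets represent at most 40 clusters of transcripts.

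The 41 probe sets did not move as one unit among the arrays of a stage. The median correlation between 2 of them, over deviations of the 12 arrays from their stage means, was 0.082, which describes these arrays only. The highest 3-day array was replicate 1 for 18, replicate 2 for 7 and replicate 3 for 16. The distance from the lowest 3-day array to the highest other array had a median of 0.51, was under 0.2 in 7 probe sets and at least 1 in 4. That highest other array was most often 60 days replicate 2 or replicate 3, with 12 probe sets each. Leaving out 1 array at a time and choosing again kept 21 of the 41 whichever array was left out, 9 of them named. Leaving out 3 days replicate 3 gave the most probe sets, 67, of which 33 were among the 41. Under all other scalings, pseudocounts and left-out arrays, 18 stayed, with the 8 named genes ZNF385D, DNAJA4, GLRX, NDUFA1, FABP3, AIMP2, PPIF and MRPL2.

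Of the 14 named genes, 7 have 8 further probe sets on the array, and 0 of these reached a peak of 1. MRPL2 came nearest, with a second probe set at 97.9, 413, 180 and 206 (means at 65 dpc, 3, 60 and 120 days) a peak of 0.92, and all 3-day arrays above all others. The second AGPAT3 probe set also had its highest mean at 3 days (peak 0.73), again with its highest array in replicate 3. The other NDUFA1 probe set averaged 862 at 65 dpc, 2530 at 3 days, 1763 at 60 days and 2099 at 120 days, a peak of 0.28. It thus stayed near its 3-day level where the probe set among the 41, of a type that can match several transcripts, did not. For GLRX the second probe set averaged 285 at 65 dpc, 319 at 3 days, 83.4 at 60 days and 76.0 at 120 days, so its fetal and 3-day levels overlapped. The other probe sets of ZNF385D (peaks -0.18 and 0.03), DNAJA4 (-0.10) and CRYAB (-0.13) did not stand out at 3 days, and those of CRYAB and 1 of ZNF385D did not pass the filter. The peaks of ZNF385D, DNAJA4, GLRX and NDUFA1 are therefore values of 1 probe set each, which no other probe set of the same gene showed at a similar size.

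**Figure D3:**
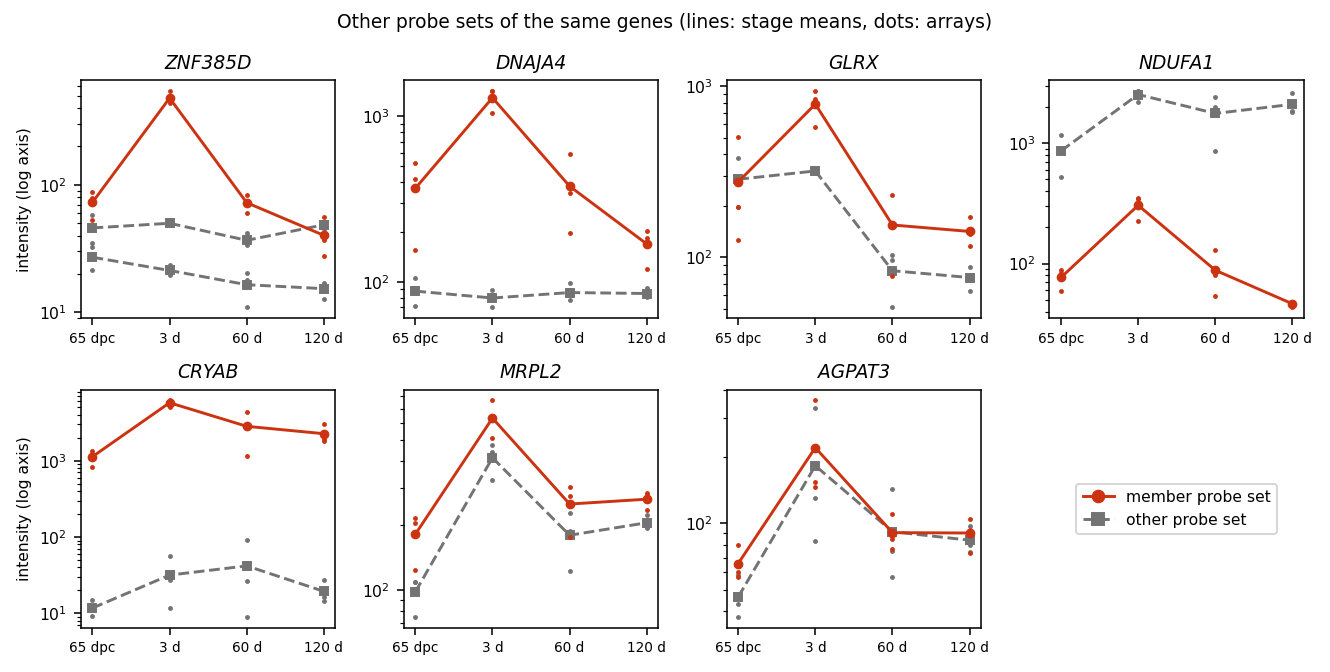
Intensity (log axis, range set per gene) by stage for the 7 named genes with more than 1 probe set; lines join stage means and dots are arrays, with the probe set among the 41 in red and the others in grey. The 2 lines run in parallel for MRPL2 and AGPAT3, and apart for ZNF385D, DNAJA4, GLRX, NDUFA1 and CRYAB.

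The stages other than 3 days were compared with one another, since the choice of the 41 fixed no difference among them. One limma fit over all 12 arrays was used, with p-values adjusted over the 16166 probe sets that passed the filter and calls at an adjusted p under 0.05. All 41 passed the filter, which asks for a value above the 40th percentile of the array on at least 3 arrays. The 3-day arrays alone could carry a probe set through it. The unnamed member with the lowest 3-day mean measured 76.7 to 92.4 at 3 days and at most 31.2 on any other array. How many members needed their 3-day arrays to pass was not counted.

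At 60 days 14 of the 41 (34.1%) were still higher than in the fetus and 0 were lower. Over all probe sets tested, 18.7% were higher and 20.4% lower at 60 days than at 65 dpc. The median difference of the 41 was 0.25 on the log2 scale. At 120 days 10 of the 41 (24.4%) were higher than at 65 dpc and 1 (2.44%) was lower, where 23.4% of all probe sets were higher and 25% lower. The share higher at 120 days was thus close to that of all probe sets, and the median difference was 0.40. Both later stages were called higher for 9 probe sets, 60 days alone for 5 and 120 days alone for 1, while 25 were called at neither. Both comparisons share the fetal arrays, and how many of all probe sets had each pattern was not counted. These pattern counts therefore show no excess among the 41. A call at one stage and none at the other does not show a difference between them. Between 120 and 60 days, 0 of 41 passed, with 3 at an unadjusted p under 0.05 and a median difference of -0.02. In that comparison limma called 0% of all probe sets higher and 0% lower, and 6.32% had an unadjusted p under 0.05.

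The later stages also differed from the fetus in the actin ratio and in the summed mature muscle markers given above, without overlap of the arrays, and the part of either in these counts was not tested. The counts move with single arrays and with the scaling. The 14 at 60 days became 7 without 60 days replicate 3, 8 without fetal replicate 3, 9 without fetal replicate 2 and 9 without 60 days replicate 2. The 11 called at 120 days became 6 without 120 days replicate 2. Centring the arrays on the hybridization controls moved the median difference of all probe sets from 65 dpc. It went from 0.025 to -0.35 at 60 days and from 0.004 to -0.43 at 120 days. The 41 then held 6 higher and 2 lower at 60 days, and 5 higher and 10 lower at 120 days. Among all probe sets on this scale 7109 were called at 60 days, of which 14.7% were higher. At 120 days 8331 were called, of which 14.4% were higher, so most calls of all probe sets were lower there too. After quantile normalization the 41 held 13 higher and 0 lower at 60 days, and 12 higher and 1 lower at 120 days. Median centring gave 14 and 0 at 60 days, and 10 and 1 at 120 days. Higher calls thus outnumbered lower ones at 60 days on each of these scalings. At 120 days the balance depends on the scaling.

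Among the named genes, PPIF, FABP3 and AIMP2 were called higher than in the fetus at both later stages. PPIF averaged 162 ± 28.2 at 60 days and 186 ± 49.4 at 120 days, against 64.0 ± 9.86 at 65 dpc (SD, n = 3 each). The differences from 65 dpc were 1.10 ± 0.28 at 60 days (SE; limma adjusted p = 0.0079) and 1.26 ± 0.28 at 120 days (adjusted p = 0.00279). PPIF was called under each of the 22 alternative settings and array omissions at both stages. FABP3 averaged 1265 ± 408 at 60 days and 1329 ± 328 at 120 days, against 553 ± 305 at 65 dpc (SD, n = 3 each). Its differences were 1.23 ± 0.35 at 60 days (limma adjusted p = 0.0145) and 1.33 ± 0.35 at 120 days (adjusted p = 0.00755). The 60-day call of FABP3 was lost without fetal replicate 2 (adjusted p = 0.0593), without 60 days replicate 3 (0.0567) and with array weights (0.0618), while the 120-day call held throughout.

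AIMP2 averaged 185 ± 46.8 at 60 days and 182 ± 23.5 at 120 days, against 105 ± 30.6 at 65 dpc (SD, n = 3 each). It differed by 0.71 ± 0.25 at both stages (limma adjusted p = 0.0421 at 60 days and 0.0347 at 120 days). These calls were near the threshold: 10 of 22 alternatives ended the 60-day call and 7 the 120-day call, with adjusted p-values up to 0.337 and 0.410 on the hybridization control scale. With single arrays left out they ranged up to 0.152 at 60 days, without fetal replicate 2, and up to 0.135 at 120 days, again without fetal replicate 2.

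CRYAB averaged 2816 at 60 days and 2254 at 120 days, against 1128 at 65 dpc. It was called higher at 60 days (1.14 ± 0.39, limma adjusted p = 0.0373), though 60 days replicate 1 lay within the fetal range. The call was lost without fetal replicate 2 (0.126) or 3 (0.0548), and without 60 days replicate 2 (0.10) or 3 (0.154). Quantile normalization (0.0636) and centring on the hybridization controls (0.0983) ended it too, so that 6 of 22 alternatives did. At 120 days all CRYAB arrays were above all fetal ones, and the difference of 0.98 ± 0.39 missed the threshold (adjusted p = 0.0573). It passed without 60 days replicate 1 (0.00668) or 3 (0.0299), with array weights (0.0479), and at 0.0427 with the replicate number as a block.

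ZNF385D was the one probe set called lower at 120 days than in the fetus. It averaged 40.1 ± 14.3 at 120 days, against 72.8 ± 18.1 at 65 dpc (SD, n = 3 each), a difference of -0.63 ± 0.20 (limma adjusted p = 0.0216), and 120 days replicate 3 overlapped the fetal range. Leaving out fetal replicate 1 or 3 or 120 days replicate 1 or 2 ended this call, with adjusted p-values from 0.0652 to 0.101. At 60 days ZNF385D differed from 65 dpc by 0.00 with a 95% interval of -0.43 to 0.44.

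For the other 9 named genes no later stage was called different from the fetus. The narrowest interval was that of TUFM, whose difference was 0.09 at 60 days (95% interval -0.28 to 0.46) and -0.13 at 120 days (-0.50 to 0.24). MRPL2 differed by 0.43 at 60 days (-0.12 to 0.98) and 0.53 at 120 days (-0.03 to 1.08), with all its 120-day arrays above the fetal ones. DNAJA4 at 120 days was -0.90 from 65 dpc (-1.84 to 0.03), and without fetal replicate 3 it was called lower (-1.39, limma adjusted p = 0.0109). NDUFA1 was -0.52 at 120 days (-1.05 to 0.00), with all its 120-day arrays below the fetal ones, and it was called lower without 60 days replicate 1 (adjusted p = 0.0421). GLRX was -0.65 at 60 days (-1.58 to 0.29) and -0.67 at 120 days (-1.61 to 0.27). The intervals of PTGDS were the widest, from -1.82 to 1.45 at 60 days.

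**Figure D4:**
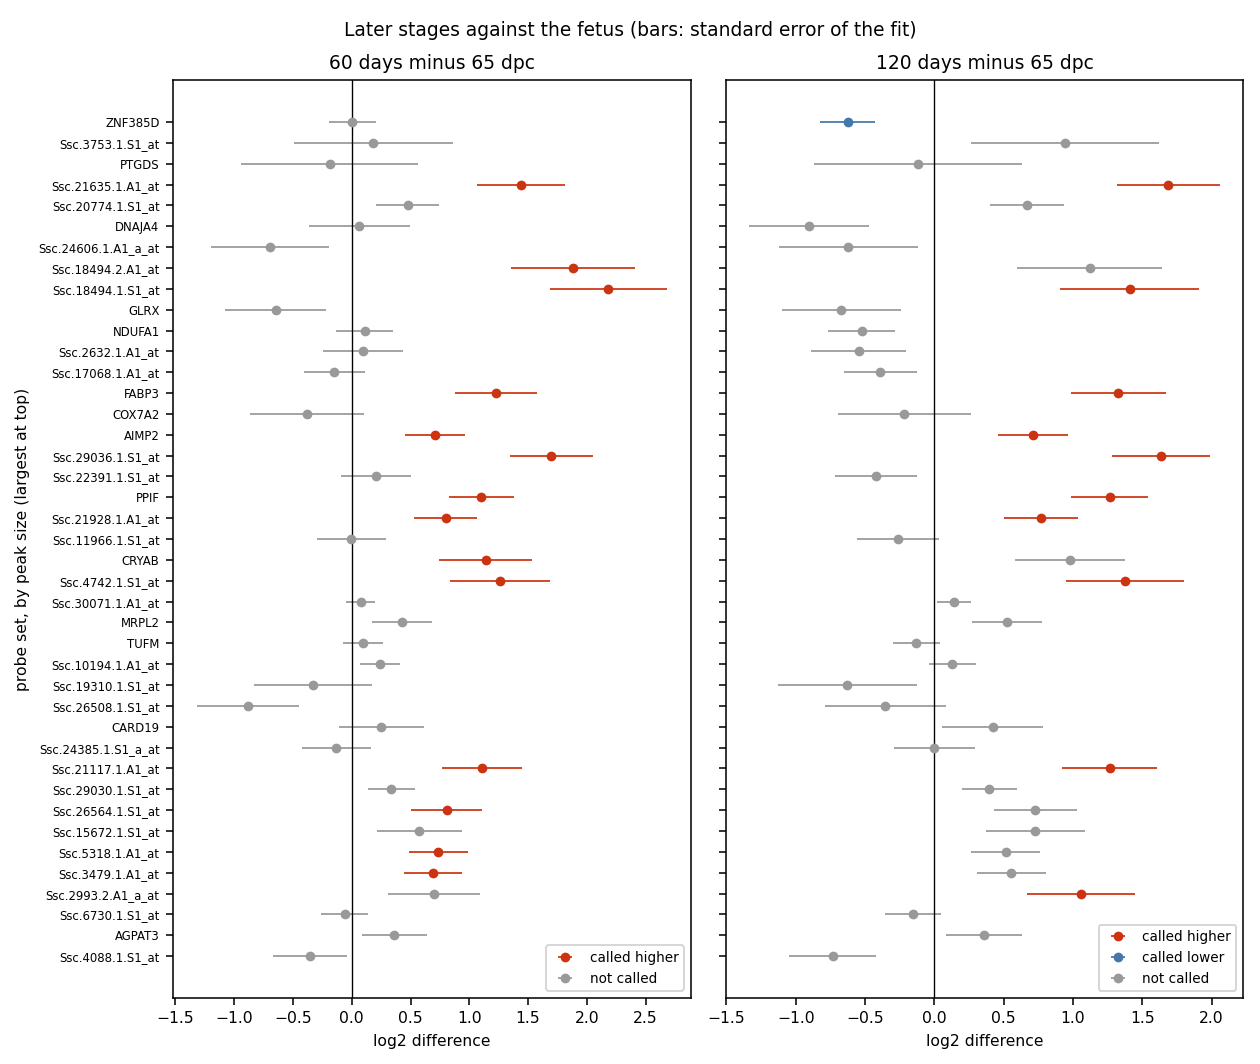
Difference of 60 days (left) and 120 days (right) from 65 dpc on the log2 scale for the 41 probe sets, in order of peak size; points are fitted differences, bars their standard errors, and colour marks calls at an adjusted p under 0.05 in limma. At 60 days 14 are called higher and 0 lower, and at 120 days 10 are called higher and ZNF385D is called lower.

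The pathways around the named genes were followed through lists, 1 probe set per gene, for 5759 measured genes. In the comparison of 3 days with 65 dpc 22.6% of these genes were called higher and 19% lower, with 60 days 0.695% higher and 0.695% lower, and with 120 days 2.69% higher and 2% lower. On the hybridization control scale these calls were 599 higher and 1624 lower against 65 dpc, 57 and 22 against 60 days, and 262 and 67 against 120 days, so the balance of higher and lower calls depends on the scaling. Over the 27 lists, 365 genes were called in either direction against 65 dpc, 16 against 60 days and 60 against 120 days. The lists hold 6 genes represented by one of the 41 probe sets, whose 3-day values the choice used, and without these the counts were 359, 14 and 56. The 16 became 3 without 3 days replicate 1 or 60 days replicate 1, 6 without 3 days replicate 2 and 25 without 3 days replicate 3. The 60 became 11 without 120 days replicate 1 or 2, 23 and 32 without 3 days replicate 1 and 2, and 35 without 120 days replicate 3. The comparisons share the 3-day arrays, so their counts are not independent of one another. All counts for single lists below leave out the genes represented by one of the 41.

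Of 45 other genes of oxidative phosphorylation, the list that holds COX7A2, 41 were called higher at 3 days than at 65 dpc and 0 lower, with a median difference of 1.56 where that of all genes was 0.06. Against 60 days 0 of 45 and against 120 days 2 of 45 were called higher, with 0 lower in each and medians of 0.41 and 0.28. The mean was nonetheless highest at 3 days for 38 of the 45 (84.4%), against 25.04% of all genes outside the 41. NDUFA1 is counted here by its other, brighter probe set. Mitochondrial import, chaperone and ribosome genes had 39 of 54 called higher than at 65 dpc, 2 than at 60 days and 7 than at 120 days, 0 lower in each, and the highest mean at 3 days for 45 (83.3%). On the hybridization control scale the counts against 65 dpc were 39 of 45 and 27 of 54. The shares with the highest mean at 3 days were 73.3% and 81.5% after quantile normalization and 84.4% and 90.7% on the hybridization control scale.

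Of 34 genes of fatty acid uptake and oxidation other than FABP3, 24 were called higher at 3 days than at 65 dpc, 1 than at 60 days and 5 than at 120 days, with 0 lower in each. These counts were 19, 1 and 8 on the hybridization control scale, again with 0 lower in each. Of 38 heat-shock proteins and chaperones other than DNAJA4, 16 (42.1%) were called higher and 1 lower than at 65 dpc (median 0.58). Against 60 days 0 were called in either direction (median 0.38), and against 120 days 12 (31.6%) were higher and 0 lower (median 0.82). On the hybridization control scale 10 were higher and 2 lower than at 65 dpc, and 18 higher than at 120 days. The chaperone HSPH1 met the criterion on means (peak 1.76) but not the other, because one 60-day array overlapped its lowest 3-day array. Of 42 translation factors and tRNA synthetases other than AIMP2, 12 (28.6%) were called higher and 2 (4.76%) lower than at 65 dpc. Against 60 days 0 were called, and against 120 days 5 (11.9%) were higher and 0 lower. The hybridization control scale gave 4 (9.52%) higher and 3 (7.14%) lower than at 65 dpc. The shares of this list higher than at 65 dpc were thus near those of all genes on both scales. Lower calls were fewer than the 19.1% and 28.3% of all genes on the 2 scales.

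Outside the 41, 15 of 5746 genes were called higher at 3 days against each of the other stages, and 3 of these are in the lists. They are named after their values were seen, so their values are a description: TIMM44 of the mitochondrial import motor, the fatty acid oxidation enzyme ECI1 and the nucleoside diphosphate kinase NME1. TIMM44 was 1.496 ± 0.16 above 65 dpc, 0.84 ± 0.16 above 60 days and 0.86 ± 0.16 above 120 days (SE), and the last 2 are short of the required 1. ECI1 was 2.55 ± 0.23 above 65 dpc, 1.05 ± 0.23 above 60 days and 0.94 ± 0.23 above 120 days, the last again under 1. NME1 was 1.05 ± 0.39 above 65 dpc, 2.05 ± 0.39 above 60 days and 2.16 ± 0.39 above 120 days, and missed the choice because its arrays overlapped the fetal ones.

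**Figure D5:**
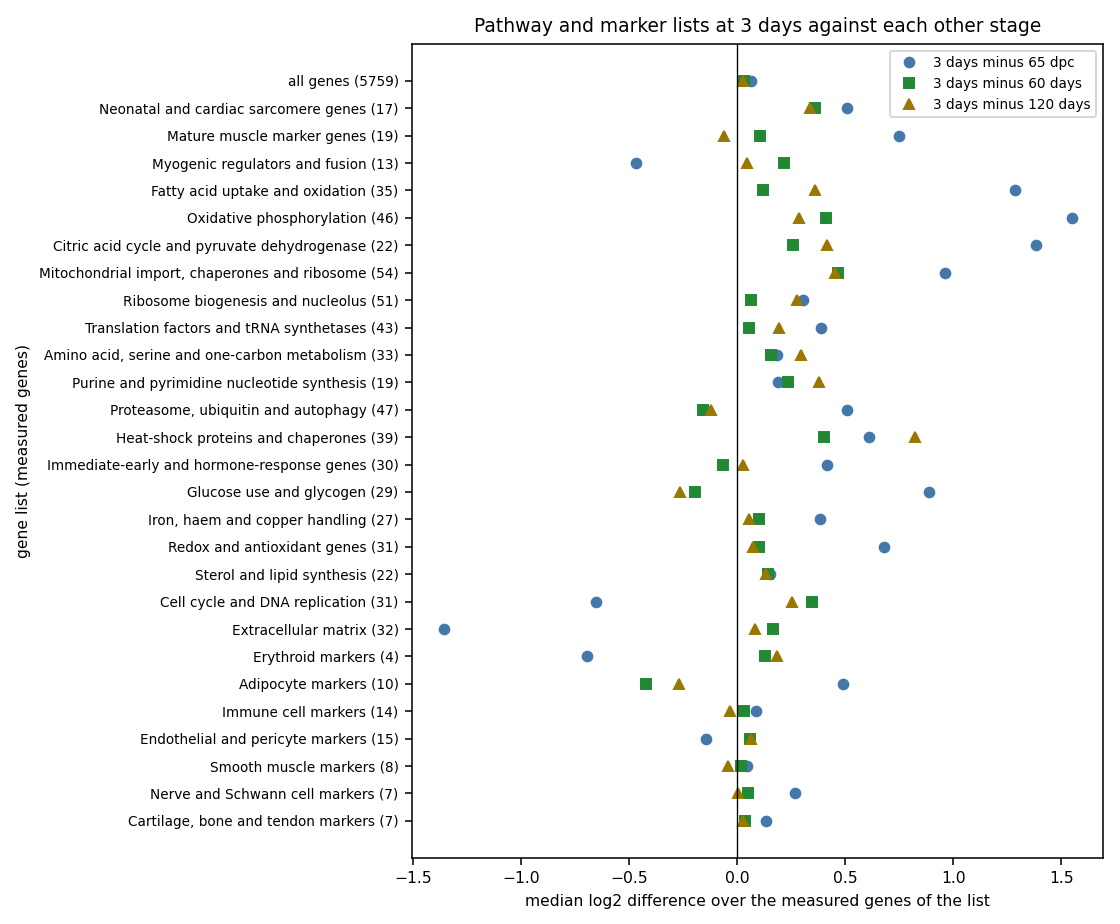
Median log2 difference of 3 days from each other stage over all measured genes of each list, members included (number in brackets), with all 5759 genes in the top row; circles are 3 days minus 65 dpc, squares minus 60 days and triangles minus 120 days. Oxidative phosphorylation has the rightmost circle (1.55), heat-shock proteins and chaperones the rightmost triangle (0.82), and extracellular matrix the leftmost circle (-1.36).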

How the data were processed

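The deposited values are linear intensities, 1 per probe set and array, which the authors made with GCOS 1.4, per the submitters' processing notes. How probes were summarised, corrected for background and scaled is not given in the sources used here. The table held 24123 probe sets, 124 of them controls. No further normalization was applied, and 21, the first quartile of the table, was added before taking log2. Symbols came from GEO's platform annotation (1 symbol for 10069 probe sets, several for 198, 13732 not listed). All 14 named members were found in the RefSeq gene table with 0 symbols changed. The number of arrays limits the precision.

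All 12 arrays entered one limma fit (8 residual and 4.26 prior degrees of freedom, variance trend, two-sided, Benjamini-Hochberg over the 16166 of 23999 probe sets, 67.4%, that passed the filter). Intervals are 95%. For list counts a gene was represented by its probe set with the highest mean. The 27 lists had 1043 entries (1028 distinct genes, 693 measured). The members and lists were chosen with earlier results of these data known. Named are the member genes with 1 symbol, the 2 largest unnamed ones, 3 probe sets on each side of the limit, and marker genes; HP, HSPH1, TIMM44, ECI1 and NME1 were added after their values were seen. No test of a member between 3 days and another stage is reported, and single-list counts leave out genes represented by a member probe set. The main fit did not pair arrays by replicate number. Deviations of same-numbered arrays correlated from -0.424 to 0.297 over 18 pairs, with 8 over 0.1. Among 65 dpc, 3 days and 120 days alone, deviations of same-numbered arrays correlated from 0.001 to 0.297. With 3 arrays per stage these values cannot settle whether arrays of one number belong together. Over all stages, correlations of differently numbered arrays ranged from -0.408 (fetal replicate 3 with 60 days replicate 1) to 0.646 (fetal replicate 2 with 60 days replicate 1). Alternatives were other pseudocounts, filters, scalings, variance models, a replicate block and omission of each array. The fit was tested on simulated data. Fits used limma 3.58.1 in R 4.3.3. Tables and plots used pandas 2.3.3, Python 3.11.15 and matplotlib 3.10.9.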

Additional observations from a re-analysis of the deposited data

How the results depend on the processing

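The number of probe sets chosen depends on the criteria more than on the scaling. It was 27 with a pseudocount of 51, 162 with a limit of 1.5-fold and 2 with a limit of 4-fold, against 41 as reported, and 38 to 67 with 1 array left out. It was 59 with a pseudocount of 1, 46 after quantile normalization, 41 after median centring, 48 on the hybridization control scale and 53 without the separation of arrays; of the 41, 37, 40 and 32 were kept under the 3 scalings in that order. Members called at 60 days against 65 dpc numbered 8 on the hybridization control scale and 7 to 14 with 1 array left out, against 14. At 120 days they numbered 19 with array weights and 6 to 16 with 1 array left out, against 11. Of all calls, 14.7% at 60 days and 14.4% at 120 days were higher on the hybridization control scale, against 47.9% and 48.3%. Genes in lists called at 3 days numbered 311 to 386 against 65 dpc, 3 to 25 against 60 days and 11 to 73 against 120 days with 1 array left out. With the replicate block, 12 members were called at 60 days and 11 at 120 days against 65 dpc, and 0 between 120 and 60 days. Of the calls of named genes, the block changed that of CRYAB at 120 days and no other. On the hybridization control scale GLRX (both stages) and DNAJA4, NDUFA1 and TUFM (120 days) were called lower than at 65 dpc. For single named genes, no difference between the stages other than 3 days changed sign past the threshold. The causes of these changes were not tested.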
